A study of Mus musculus with 82 samples.

Results

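The kallikreins and the transmembrane serine proteases of mouse mammary tumours are described here across 13 tumour models. They were taken from the gene table by symbol, as every gene whose name begins with Klk or Tmprss followed by a digit, with pseudogenes left out. The rule uses no measured value. It found 43 genes among the 47480 of the table, of which 26 are kallikreins and 17 are Tmprss genes.

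RNA had been sequenced from 82 untreated mammary tumours, with 2 to 12 libraries for each of 13 models. The models grown in BALB/c mice were 2208 (12 libraries), 2250 (11), 2225 (10), 2153 (7), 9263 (7), 2336 (5), 4T1 (5), 2224 (4) and T12 (3). FVB mice carried KPB1-A (2), MMTV-PYMT (5) and MMTV-NEU (8), and C57BL/6 mice carried E0771 (3). 4T1 and E0771 are established lines of mouse mammary tumour cells. In MMTV-NEU and MMTV-PYMT tumours, the promoter of the mouse mammary tumour virus drives the Neu receptor or the polyoma middle T antigen in mammary epithelium. For the numbered models, KPB1-A and T12, the labels give a name and a strain, with no genotype, age or driver. Strain and model cannot be told apart, because each model was grown in 1 strain. The study calls the libraries individual tumours and biological replicates. The labels do not say whether the tumours of a model grew in separate mice, so p-values measure the spread between these libraries, which may be partly technical.

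Kallikreins are secreted serine proteases, made as inactive precursors that are switched on by a cut near their amino end. In the epidermis several of them activate one another and digest the junctions that hold the outermost cells together, under the control of the inhibitor Spink5. Tmprss proteases are anchored in the cell surface with the catalytic domain outside the cell, where they cut other proteases, ion channels, precursors of signalling proteins and viral coat proteins. In mice the gene for tissue kallikrein, Klk1, has many close relatives, which are best known from the salivary glands.

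All 26 kallikreins lie in 1 cluster on chromosome 7 (mm10, chr7:43690418-44229618, 539 kb). Of the 17 Tmprss genes, 7 belong to a second cluster, that of the Tmprss11 genes on chromosome 5 (chr5:86231481-86745815, 514 kb). Tmprss4 and Tmprss13 are neighbours on chromosome 9 (chr9:45172726-45347581, 175 kb). The catalytic serine that defines these enzymes is given in the coding strand of 8 of the 10 genes that reached 5 CPM, 21 bases each, from the mm10 genome with GENCODE M21 coding exons. The capitals mark the codon of that serine.
Klk10 (chr7:43784870-43784890, + strand): agtgacTCCggtggccccctg
Klk7 (chr7:43815297-43815317, + strand): ggtgacTCAggggggcccttg
Klk6 (chr7:43831489-43831509, + strand): ggtgatTCTggaggtccccta
Tmprss11e (chr5:86707414-86707434, - strand): ggtgacTCGggaggtccactt
Tmprss6 (chr15:78440352-78440372, - strand): ggtgacTCTggaggcccactg
Tmprss2 (chr16:97567155-97567175, - strand): ggagacAGTggagggccgctg
Tmprss4 (chr9:45173987-45174007, - strand): ggtgacAGTggtgggcctttg
Tmprss13 (chr9:45345226-45345246, + strand): ggagacAGTggaggacctctc
The pattern of aspartate, serine, glycine and glycine around this residue was found exactly 1 time in 42 of the 43 coding sequences. Tmprss9, known as a polyserase with several protease domains, held it 2 times. All 26 kallikreins spell the serine with a codon that begins with TC. Among the 16 Tmprss genes with 1 match, 10 use a TC codon and 6 use AGT or AGC. Those 6 are Tmprss2, Tmprss3, Tmprss4, Tmprss5, Tmprss12 and Tmprss13, whereas the 7 Tmprss11 genes and Tmprss6 use TC codons. In all 42 sequences an exon border lies 6 bases before the codon. The codon classes are given as a description of the sequences, and their relation to the levels of the genes was not tested.

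Total counts ranged from 14.4 M to 132.7 M per library, with a median of 58.2 M. Levels below are CPM, counts per 1 M, scaled by edgeR's TMM factors, a level of the whole gene that is not divided by its length. Of the 43 proteases, 29 passed the filter on low counts and were tested, and 14 did not. The 14 untested genes were 11 kallikreins, mostly of the Klk1 subfamily, and 3 Tmprss genes. Their highest model mean was 0.0959 CPM (Klk15 in MMTV-PYMT), and 5 of them (Klk1b4, Klk1b5, Klk1b16, Klk1b22 and Tmprss15) had no count in any library. Among the 43 genes, 10 reached a mean of 5 CPM in some model, 10 reached between 1 and 5 CPM, and 23 stayed under 1 CPM in every model.

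The 13 models differed for all 29 tested proteases by edgeR's quasi-likelihood F test (adjusted p at most 0.00105). That count carries no information about the family, since 98.2% of the 22847 tested genes passed the same test. A protease that passed the filter through 1 high model had to differ, so the counts and p-values below are a description of the tested members. A stricter reading asks whether every library of the highest model lay above every library of the other 12 models. Of the 20 proteases with a model mean of at least 1 CPM, 3 did so, against 21.9% of all tested genes at that level. The 3 were Tmprss4 in 2250, and Tmprss11e and Tmprss6 in 4T1.

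**Figure D1:**
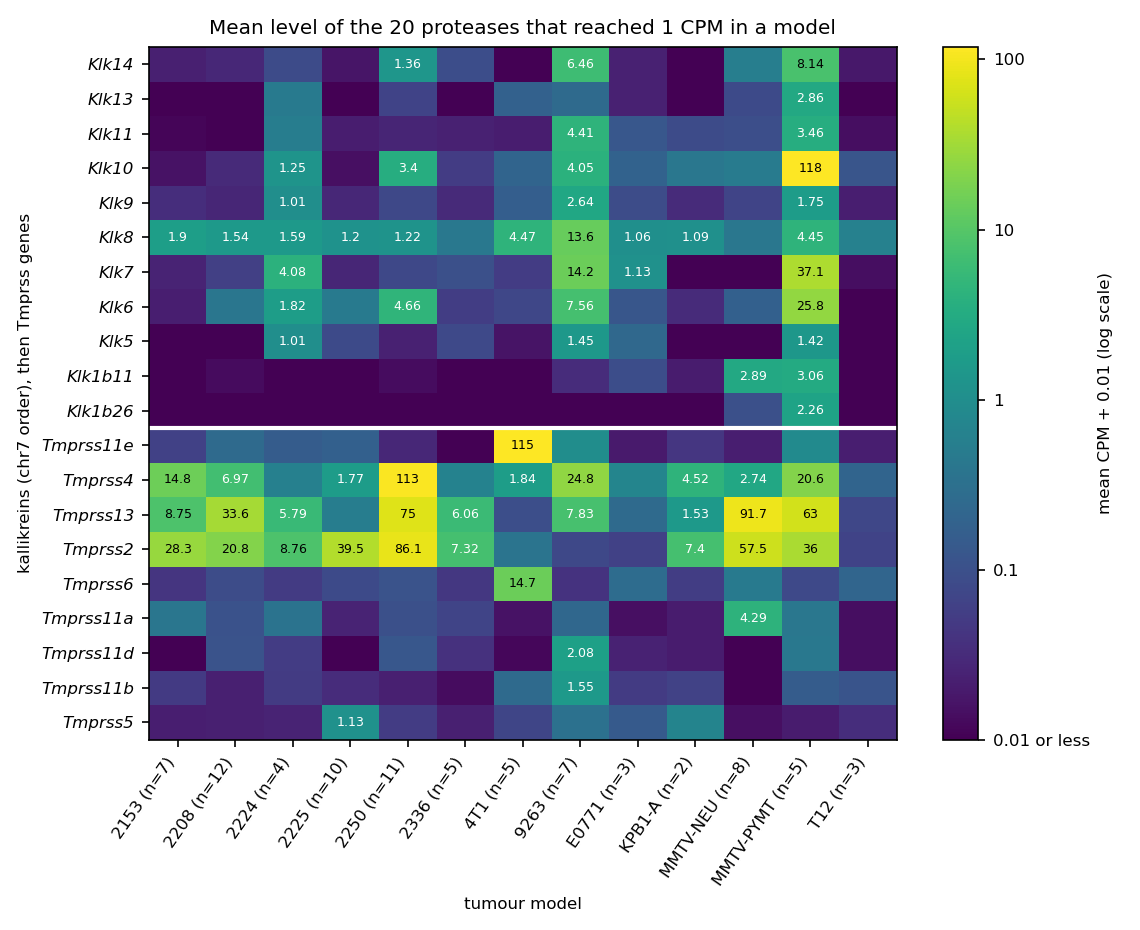
Mean level of the 20 proteases that reached 1 CPM in at least 1 model, in CPM on a log colour scale, with kallikreins above and Tmprss genes below the white line; values of 1 CPM or more are printed. MMTV-PYMT and 9263 carry most of the high kallikrein values, Tmprss11e and Tmprss6 are high in 4T1, and Tmprss2, Tmprss4 and Tmprss13 are spread over many models.

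Each model was next compared with the mean of the other 12 models on the log2 scale, in 1 fit with adjustment over all tested genes. The 13 comparisons share their libraries. MMTV-PYMT stood out by count, with 23 of the 29 tested proteases higher and 2 lower (31.0% and 20.5% of all tested genes). limma on the authors' normalized table called 14 higher there. In 9263, 21 were higher and 2 lower (32.5% and 21.9% of all genes). The median log2 difference of the 29 was 4.10 in MMTV-PYMT and 3.43 in 9263, against 0.04 and 0.05 over all tested genes. These fitted medians include genes with no count in some models. With model levels under 3 counts raised to that level, the medians were 3.44 in MMTV-PYMT and 3.06 in 9263. At the other end, none was higher and 6 were lower in T12 (24.4% and 23.8% of all genes). For some proteases without a count in several models, the edgeR comparison could not call a lower level. Klk5 and Klk13 had no count in T12, and fitted differences there of -4.16 and -3.70 with SE of 16835.8 and 14476.4. Counts of lower proteases, here and below, are limited in this way and cannot be read against the shares of all genes. At an unadjusted p of 0.05, edgeR gave 1 higher protease in T12, and limma and DESeq2 gave 0 after adjustment. Without T12 replicate 3, edgeR called 1 higher.

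The remaining models had fewer higher calls. In 2224, 11 were higher and 1 was lower (24.0% and 14.8% of all genes), and in 2250, 11 were higher and none lower (32.1% and 27.7%). In MMTV-NEU, 10 were higher and 5 lower (34.0% and 28.4%), in 4T1, 7 and 6 (25.5% and 23.6%), and in 2208, 7 and 4 (29.4% and 24.7%). The counts were 5 and 5 in 2153 (29.4% and 23.6%) and in E0771 (29.4% and 26.9%), and 5 and 7 in 2225 (34.2% and 26.8%). In 2336, 2 were higher and 6 lower (30.2% and 25.4%), and in KPB1-A, with 2 libraries, 2 were higher and none lower (24.9% and 14.4%). With edgeR, no count in either direction exceeded 11 outside MMTV-PYMT and 9263. The other tools called more proteases lower, with 15 in 2153 by DESeq2 and 12 by limma on the normalized values, 13 and 12 in 2225, 9 and 11 in 2208, 10 and 14 in 4T1, and 12 and 13 in T12. DESeq2 also called 11 lower in 2336 and 10 in MMTV-NEU, and limma 9 in E0771. Higher calls by limma numbered 4 in 2224, 3 in 2208, 3 in 2225 and 0 in E0771, where DESeq2 gave 4. For the lower side of 2250, edgeR gave 0 at an unadjusted p of 0.05, DESeq2 gave 2 and limma on the normalized values gave 6. For the lower side of KPB1-A these were 1, 3 and 1. Single libraries moved some counts by more than 1.5 times. Higher calls numbered 5 in 2224 without replicate 4, 2 in E0771 without replicate 2, and 1 in KPB1-A without either library. Lower calls numbered 3 in 2336 without replicate 5 and 3 in E0771 without replicate 1, 0 in MMTV-PYMT without replicate 4 and 1 without any other library of that model, and 2 in 2224 without replicate 2.

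The first group is the kallikreins of stratified epithelium, Klk5 to Klk14, of which 10 were tested. Klk10, whose human counterpart was named for its expression in normal epithelial cells (ENSMUSG00000030693, chr7:43781035-43785410), reached the highest level per kilobase of exon. Its 5 MMTV-PYMT libraries had 190, 7.33, 156, 196 and 42.3 CPM. In 9263, the next model, the lowest, median and highest of 7 libraries were 0.801, 4.99 and 7.12 CPM. Of the MMTV-PYMT libraries, 4 lay above every library of the other models, and replicate 2 lay above all but 1 of them, a 2250 library with 19.3 CPM. The MMTV-PYMT mean was 118 ± 87.6 CPM (SD, n = 5), against 4.05 ± 2.36 CPM in 9263 (n = 7), and the log2 difference from the other 12 models was 9.45 ± 0.55 (SE; edgeR adjusted p = 2.77e-25). Klk10 fell in 2225, 2153, 2208 and 2336, with log2 differences of -6.12, -5.59, -4.26 and -2.73. The fall in 2336 was lost without replicate 3, 4 or 5 of that model. Without MMTV-PYMT replicate 1, which decides other kallikrein means below, the Klk10 mean was 101 ± 90.1 CPM (n = 4).

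Klk7, a chymotrypsin-like enzyme of the outer epidermis (ENSMUSG00000030713, chr7:43811294-43816359), had 175, 9.17, 0.261, 0.490 and 0.671 CPM in the MMTV-PYMT libraries. In 9263 its lowest, median and highest values were 1.07, 15.6 and 29.0 CPM. A single MMTV-PYMT library stood far above all others, and the remaining 4 overlapped or lay under the range of 9263. The mean of 37.1 ± 77.05 CPM in MMTV-PYMT (SD, n = 5) became 2.65 ± 4.35 CPM without replicate 1 (n = 4). The log2 difference of MMTV-PYMT was 9.18 ± 0.65 (SE; edgeR adjusted p = 7.96e-20) and 5.40 ± 0.63 without that library. In 9263 it was 7.68 ± 0.63 (adjusted p = 3.19e-17). No read was assigned to Klk7 in the 8 MMTV-NEU and 2 KPB1-A libraries. Fitted differences of such genes depend on the offset used at 0, and with levels under 3 counts raised to that level they were 8.58 in MMTV-PYMT and 7.08 in 9263.

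Klk6, a trypsin-like kallikrein also known from brain (ENSMUSG00000050063, chr7:43824499-43832030), had 111, 7.47, 2.69, 4.10 and 3.28 CPM in MMTV-PYMT libraries. In 9263 the lowest, median and highest were 0.792, 6.79 and 15.5 CPM, and in 2250 they were 2.38, 3.44 and 8.94 CPM. Apart from MMTV-PYMT replicate 1, the libraries of these 3 models overlapped. Klk6 rose in MMTV-PYMT by 7.30 ± 0.60 on the log2 scale (4.78 ± 0.60 without replicate 1), in 9263 by 5.38 ± 0.57, in 2250 by 4.63 ± 0.53 and in 2224 by 3.17 ± 0.69 (SE; edgeR adjusted p at most 0.000118). The value in 2224 was -0.49 without replicate 4 of that model (adjusted p = 1). In T12 it was listed without any count, and its fitted difference there is an offset-dependent -7.47.

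Klk14, a trypsin-like enzyme that acts in skin shedding (ENSMUSG00000044737, chr7:43690418-43695536), was highest in MMTV-PYMT and 9263. It had 29.0, 3.01, 3.53, 2.80 and 2.39 CPM in MMTV-PYMT, against a lowest, median and highest of 0.482, 8.17 and 10.8 CPM in 9263. Here the 9263 libraries were mostly above the 4 lower MMTV-PYMT libraries. The log2 differences were 7.56 ± 0.43 in MMTV-PYMT (6.10 ± 0.42 without replicate 1, which is under the value of 9263), 7.20 ± 0.41 in 9263, 4.76 ± 0.38 in 2250 and 3.34 ± 0.44 in MMTV-NEU (SE; edgeR adjusted p at most 5.13e-10). 4T1 and KPB1-A had no count of Klk14.

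Klk8, known as neuropsin in brain and also made in skin (ENSMUSG00000064023, chr7:43797577-43803826), was the kallikrein seen most widely, with counts in all 82 libraries and a mean of at least 1 CPM in 10 models. Its lowest, median and highest values in 9263 were 2.57, 16.0 and 20.5 CPM. In 4T1, the next model, the 5 libraries had 4.34, 5.73, 4.61, 4.01 and 3.65 CPM, an even level within the 9263 range. Klk8 rose in 9263 by 3.43 ± 0.31, in 4T1 by 1.69 ± 0.39 and in MMTV-PYMT by 1.68 ± 0.39 on the log2 scale, and fell in MMTV-NEU (-2.06) and in 2336 (-1.996; edgeR adjusted p at most 0.00197). The MMTV-PYMT rise was lost without replicate 1 (log2 difference 0.43, adjusted p = 0.477).

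Lower in the same group, Klk11, a trypsin-like kallikrein, averaged 4.41 CPM in 9263 and 3.46 CPM in MMTV-PYMT. Klk9 averaged 2.64 and 1.75 CPM, and Klk5, which starts the epidermal cascade, 1.45 and 1.42 CPM in the same 2 models. Klk13 averaged 2.86 CPM in MMTV-PYMT and at most 0.453 CPM elsewhere, and Klk12 averaged at most 0.154 CPM in any model. In 2224, Klk9 and Klk5 averaged 1.01 CPM each. In the other 10 models the highest mean of these 5 genes was 0.232 CPM (Klk5 in E0771). Single libraries held much of these levels. Without MMTV-PYMT replicate 1 the means there were 1.92 CPM for Klk11, 0.523 for Klk9, 0.445 for Klk13 and 0.163 for Klk5. Without 2224 replicate 4 they were 0.0435 CPM for Klk9 and 0.155 CPM for Klk5 in 2224.

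Within 4 models the epidermal kallikreins were high or low in the same libraries. MMTV-PYMT replicate 1 was the highest library of its model for 9 of the 10 genes, Klk10 being the exception. 2224 replicate 4 was highest of its model for 10 of 10, and E0771 replicate 2 for 9 of 10, with Klk12 the exception. In 9263, replicates 5 and 6 were the 2 lowest for 10 of 10. Cornified and differentiating squamous epithelium is a cell type that these tumours could hold, and a list of 21 of its genes moved with the same libraries. The summed squamous CPM was 1763 in MMTV-PYMT replicate 1, against 75.2, 25.7, 30.5 and 41.2 CPM in replicates 2 to 5. It was 832 CPM in 2224 replicate 4 against 10.8 to 108 CPM in the other 3, and 108 CPM in E0771 replicate 2 against 13.4 and 14.5 CPM. In 9263 it was 272 and 99.3 CPM in replicates 5 and 6, and 729 to 1601 CPM in the other 5. In the other 9 models it did not exceed 75.3 CPM.

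**Figure D2:**
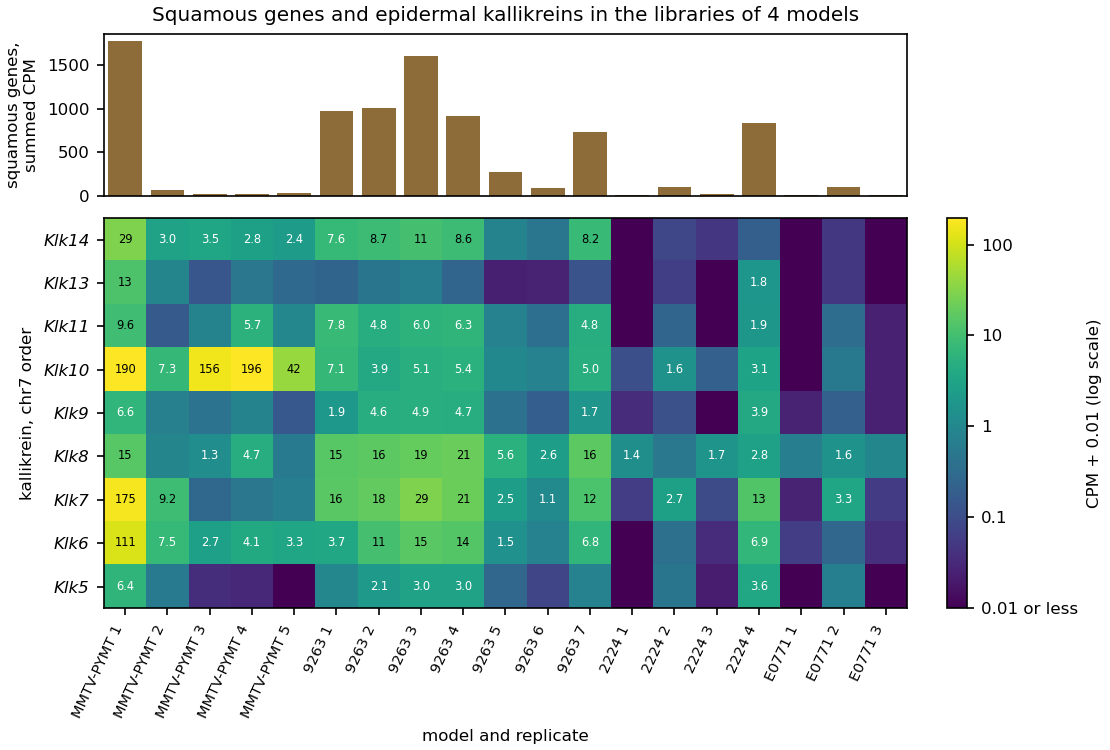
Upper panel, summed CPM of 21 squamous genes in each library of MMTV-PYMT, 9263, 2224 and E0771; lower panel, CPM of 9 epidermal kallikreins in the same libraries on a log colour scale, with values of 1 CPM or more printed. The libraries with tall bars, MMTV-PYMT 1, 9263 1 to 4 and 7, and 2224 4, lie above the other libraries shown for Klk5, Klk7 and Klk9, while Klk10 is also high in MMTV-PYMT 3, 4 and 5.

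Of the 20 tested squamous genes, 19 were higher in 9263 (32.5% of all genes), and 18 higher and 1 lower in MMTV-PYMT (31.0% and 20.5%). In 2224, 17 were higher and 1 lower (24.0% and 14.8%), and in E0771, 9 and 1 (29.4% and 26.9%). With low levels raised as above, the list's median log2 difference was 5.32 in MMTV-PYMT, 5.27 in 9263, 4.42 in 2224 and 0.96 in E0771. In MMTV-PYMT, 2224 and E0771 most of the summed level lay in the single library named above. The list was not recomputed without those libraries. Sprr1a, a cornified envelope protein, averaged 231 CPM in 9263, and the stress keratins Krt16 and Krt6a averaged 121 and 105 CPM there. Lor, the envelope protein loricrin, averaged 69.3 CPM in 9263 and 0.186 CPM in MMTV-PYMT, where it was called lower (log2 difference -2.44). The part of squamous cells in the kallikrein levels was not tested. In bulk tumours, fewer cells of a type and less RNA per cell cannot be told apart.

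**Figure D3:**
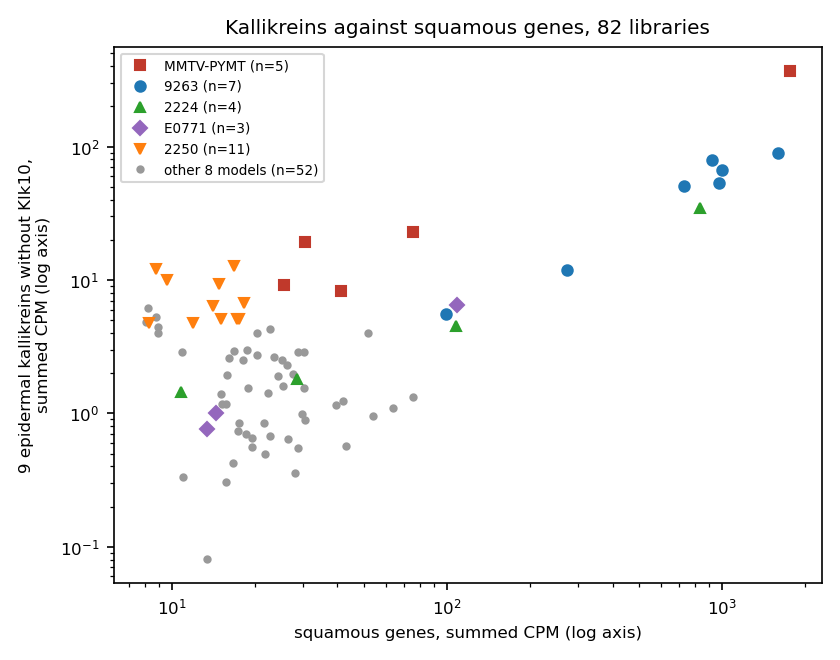
Summed CPM of 9 epidermal kallikreins without Klk10 against summed CPM of 21 squamous genes, 1 point per library, both axes logarithmic. MMTV-PYMT replicate 1 holds the highest value on both axes (1763 CPM of squamous genes and 366 CPM of kallikreins), 9263 replicates 1 to 4 and 7 and 2224 replicate 4 hold the next 6 kallikrein sums (34.5 to 89.0 CPM), 9263 replicates 5 and 6 have 11.9 and 5.54 CPM, and the 2250 libraries have 4.72 to 12.8 CPM of kallikreins at low squamous sums.

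A fit without MMTV-PYMT replicate 1, 2224 replicate 4 and E0771 replicate 2 was added after the data had been seen. In MMTV-PYMT the count of higher proteases was 16 in place of 23, and 16 of the 21 calls on members tested in both fits were shared. Klk8, Tmprss11b, Tmprss11d, Tmprss11e and Tmprss11f lost their calls there, whereas Klk5, Klk6, Klk7, Klk9, Klk10, Klk11, Klk13 and Klk14 kept them. In 2224 the count was 6 in place of 11, and Klk6, Klk9, Klk11 and Klk13 lost their calls. In E0771 it was 2 in place of 5, without Klk5, Klk7 and Tmprss6. In 9263 all 19 calls on members tested in both fits were shared.

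Promoter windows from RefSeq (GRCm38.p6, 250 bases before to 50 after a start) were found for 38 of the 43 proteases, 42 windows in all. The 120 bases before the start are shown for 2 of the kallikreins that rose in MMTV-PYMT and 9263. Each holds 2 matches of a short motif that recurs in windows of the cluster. Klk13 and Klk11 also rose in both models, and the same stretch held 1 match for Klk13, and 1 and 0 for windows of Klk11. The 2 shown are thus those with the most matches. The stretch was not read for other kallikreins that rose in both models, such as Klk5, Klk6, Klk9 and Klk14. A link of the motif to the rise was not tested. Capitals mark CCACCC or its reverse complement GGGTGG.
Klk10 (chr7:43780934-43781053, + strand): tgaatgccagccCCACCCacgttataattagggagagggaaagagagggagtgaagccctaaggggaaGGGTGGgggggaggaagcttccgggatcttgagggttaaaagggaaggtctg
Klk7 (chr7:43811174-43811293, + strand): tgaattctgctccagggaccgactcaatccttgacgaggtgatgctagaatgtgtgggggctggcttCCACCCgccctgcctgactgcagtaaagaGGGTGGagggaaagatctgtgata
The motif occurred, on either strand, in 20 of 28 kallikrein windows and 4 of 14 Tmprss windows, and in 31.5% of 32851 mouse promoter windows of the same length. The kallikrein windows cover all 26 kallikreins, of which 15 stayed under 1 CPM in every model. It was 1 of 7 motifs searched on both strands. TGANTCA was found in 0 of 28 kallikrein windows and 4 of 14 Tmprss windows (7.81% of all), CCAAT in 12 and 8 (37.4%), and AGAACA in 7 and 3 (19.0%). GGAAGT was found in 5 and 2 (23.8%), TATAAA in 1 and 0 (13.6%) and AACCNGTT in 1 and 0 (2.09%). Kallikrein promoters share ancestry and are not independent of each other, and a match is a description of letters.

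The second kallikrein group, Klk1 and its 13 close relatives, was low and is uncertain gene by gene. The longest coding transcripts of these 14 genes share between 20.5% and 59.8% of their 30-base words with other genes, with a median of 41.1%, against at most 0.427% for the other 12 kallikreins and 2.94% for the Tmprss genes. Reads of one could therefore be assigned to another. Klk1b11 and Klk1b26 were the only ones above 1 CPM. Klk1b11 had 0.556, 8.43, 4.62, 0.796 and 0.917 CPM in MMTV-PYMT (mean 3.06), and 0.432, 3.06 and 4.72 CPM as lowest, median and highest in MMTV-NEU (mean 2.89). The 2 models overlapped, and the highest mean of another model was 0.0819 CPM (E0771). Klk1b26 had 0.173, 6.55, 3.32, 0.245 and 0.994 CPM in MMTV-PYMT, against a mean of 0.0893 CPM in MMTV-NEU, and no count in the 11 remaining models. Both rose in both models, Klk1b11 by 8.49 ± 0.40 in MMTV-PYMT and 8.40 ± 0.38 in MMTV-NEU, and Klk1b26 by 9.67 ± 0.57 and 4.51 ± 0.65 (SE; edgeR adjusted p at most 1.20e-05). Klk1b26 could pass the filter on low counts only through these 2 models, so its p-values there are no support for a rise. Klk1b11 also rose in E0771, by 2.85. With low levels raised to 3 counts, the rises in MMTV-PYMT and MMTV-NEU were 7.43 and 7.34 for Klk1b11, and 7.75 and 2.71 for Klk1b26. Without MMTV-PYMT replicate 2 the fitted rises there were 7.65 for Klk1b11 and 8.74 for Klk1b26.

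Within MMTV-PYMT, replicate 2 led Klk1b11 and Klk1b26, replicate 3 came next, and replicate 1, the highest for Klk7, was lowest for both. A list of 16 genes of the submandibular, salivary and sweat glands summed to 219, 1984, 1540, 387 and 510 CPM in MMTV-PYMT replicates 1 to 5, so replicates 2 and 3 were high. Without Aqp5 and Ren1, its most abundant genes, the summed level of that list was 1596 CPM in MMTV-PYMT replicate 2, against 23.7, 56.2, 41.4 and 91.9 CPM in replicates 1, 3, 4 and 5. The secretoglobin Scgb2b27 alone made up 1392 CPM of the sum in replicate 2. With that gene left out as well, replicate 2 had 204 CPM and the other 4 had 13.1 to 46.3 CPM. The sum without Aqp5, Ren1 and Scgb2b27 lay between 47.7 and 141 CPM in the 8 MMTV-NEU libraries. In 2250, which had no count of Klk1b26, it lay between 128 and 344 CPM. Of the 16 gland genes, 14 were higher and 1 lower in MMTV-PYMT (31.0% and 20.5% of all genes). In MMTV-NEU, 10 were higher and 2 lower (34.0% and 28.4%). The gland counts were 9 and 3 in 2250, and 8 and 1 in 2336 and in KPB1-A. Other lists also rose in both MMTV models. All 11 milk protein genes were higher in both, and 10 were higher in 2250. All 8 adipocyte markers were higher in both and none in any other model. The adipocyte sum was 8.43 CPM in MMTV-PYMT replicate 2 and 739 CPM in replicate 5. Scgb2b27 averaged 303 ± 609 CPM in MMTV-PYMT (SD, n = 5) and 38.2 CPM in MMTV-NEU. The part of gland tissue, or of the cells of the other lists, in these levels was not tested. The submandibular relatives known as partners of nerve growth factor and epidermal growth factor, Klk1b3, Klk1b4 and Klk1b9, averaged at most 0.0235 CPM. Klk1, which releases kinins from kininogen, stayed under 1 CPM, with a highest model mean of 0.925 CPM in 9263.

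The third group comprises Tmprss2, Tmprss4 and Tmprss13, which were measured in most models. Tmprss2, a protease known for androgen control in prostate and for cutting viral coat proteins (ENSMUSG00000000385, chr16:97564682-97611195), had a lowest, median and highest level of 43.5, 85.7 and 161 CPM in 2250. In MMTV-NEU the same values were 47.7, 57.8 and 67.0 CPM, within the range of 2250. It averaged 39.5 CPM in 2225, 36.0 in MMTV-PYMT, 28.3 in 2153, 20.8 in 2208 and 7.32 to 8.76 in 2224, KPB1-A and 2336. In 4 models it was under 1 CPM in every library, with means of 0.366 CPM in 4T1, 0.0653 in 9263, 0.0554 in T12 and 0.0509 in E0771. The highest library of these 4 models had 0.702 CPM and the lowest library of the other 9 had 5.99 CPM. The 2 sets were formed by these same values. Tmprss2 rose in 2250 by 4.68 ± 0.16 on the log2 scale, and fell in E0771 (-6.79), T12 (-6.76), 9263 (-6.30) and 4T1 (-3.84; edgeR adjusted p at most 6.96e-17).

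Tmprss4, a surface protease often raised in human carcinomas (ENSMUSG00000032091, chr9:45172726-45204092), had 75.5, 107 and 179 CPM as lowest, median and highest in 2250. In 9263 these values were 9.32, 22.3 and 38.3 CPM, and no library outside 2250 exceeded 38.3 CPM. The mean was 113 ± 25.7 CPM in 2250 (SD, n = 11), against 24.8 ± 10.7 CPM in 9263 (n = 7). Tmprss4 rose in 2250 by 5.43 ± 0.27, in 9263 by 3.05 ± 0.27, in MMTV-PYMT by 2.77 ± 0.30 and in 2153 by 2.24 ± 0.28 (SE; edgeR adjusted p at most 1.39e-10). It fell in T12, 2224, 2336 and E0771, with log2 differences of -4.54, -2.74, -2.68 and -2.50.

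Tmprss13, a mosaic-type transmembrane protease (ENSMUSG00000037129, chr9:45319100-45347581), had 41.5, 98.6 and 111 CPM as lowest, median and highest in MMTV-NEU. In 2250 the values were 53.7, 74.9 and 101 CPM, which overlap with those of MMTV-NEU. The 5 MMTV-PYMT libraries had 70.3, 37.0, 83.0, 42.7 and 82.0 CPM. Of these, 3 lay within the ranges of both models, replicate 4 lay under the range of 2250, and replicate 2 lay under both. It rose in MMTV-NEU by 4.96 ± 0.24, in 2250 by 4.64 ± 0.23, in MMTV-PYMT by 4.37 ± 0.26 and in 2208 by 3.39 ± 0.21, and fell in T12 (-6.37), 4T1 (-5.84), E0771 (-4.25) and 2225 (-3.21; edgeR adjusted p at most 7.06e-08).

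**Figure D4:**
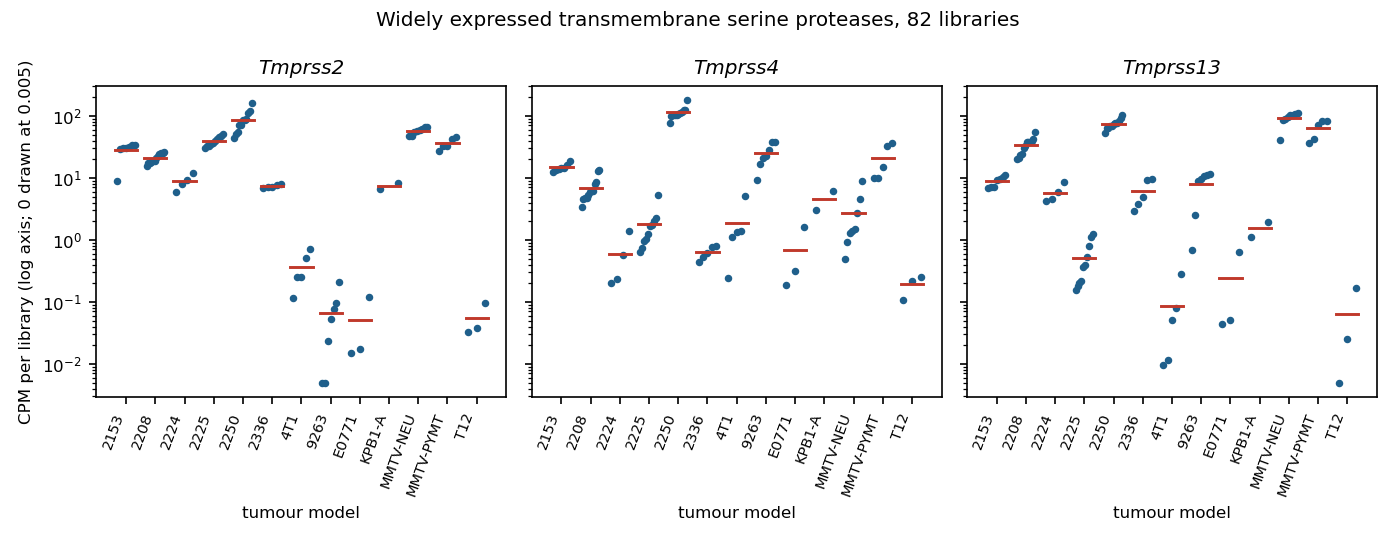
Level of Tmprss2, Tmprss4 and Tmprss13 in each of the 82 libraries by model, in CPM on a log axis; dots are libraries, bars are model means and values of 0 are drawn at 0.005. Tmprss2 drops to under 1 CPM in 4T1, 9263, E0771 and T12, and in 2225 Tmprss2 is high while Tmprss13 is low.

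The 3 genes did not move as 1 set. In 9263, Tmprss4 and Tmprss13 rose by 3.05 and 1.10 on the log2 scale while Tmprss2 had -6.30. In 2225, Tmprss2 rose by 3.46, while Tmprss4 and Tmprss13 fell (-1.09 and -3.21). In MMTV-NEU, where Tmprss13 rose by 4.96, its neighbour Tmprss4 had a log2 difference of -0.39 (edgeR adjusted p = 0.327). Per kilobase of exon, Tmprss4 led the family in 2250 with 43.8 CPM per kb, before Tmprss13 with 23.1, and Tmprss13 led in MMTV-NEU with 28.3 CPM per kb. The exon length joins all annotated exons of a gene. For Tmprss2 it was 7302 bases, while its longest coding transcript has 3161. The 11.8 CPM per kb of Tmprss2 in 2250, and its order against Tmprss13, thus depend on the length used. Klk10 led in MMTV-PYMT with 86.2 CPM per kb and Tmprss11e in 4T1 with 33.8 CPM per kb. In T12 the highest value was 0.400 CPM per kb, of Klk8.

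T12 and E0771, which had the lowest Tmprss2, were also the models with the lowest luminal epithelial markers. All 10 luminal markers were lower in both models, and none was at 0 in all libraries of either. The summed luminal CPM was 253 to 348 in T12 and 371 to 405 in E0771, against 874 to 8296 CPM in the other 11 models. In 9263 and 4T1, where Tmprss2 also fell, 5 of the 10 luminal markers were higher in each, 3 were lower in 9263 and 2 in 4T1, and the summed levels were 874 to 2166 CPM and 2676 to 3335 CPM. The part of epithelial content in the Tmprss levels was not tested.

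The fourth group comprises proteases that were high in 1 model. Tmprss11e, a protease of squamous epithelium (ENSMUSG00000054537, chr5:86705186-86745815), had 147, 128, 114, 92.7 and 94.6 CPM in the 5 libraries of 4T1. In 9263, the next model, the lowest, median and highest were 0.125, 0.792 and 2.65 CPM. No library outside 4T1 exceeded 3.76 CPM (MMTV-PYMT replicate 1), and 5 of 5 libraries of 2336 had no count. The 4T1 mean was 115 ± 23.0 CPM (SD, n = 5), which is 117 times that of 9263, 0.983 ± 0.887 CPM (n = 7). The log2 difference of 4T1 from the other models was 11.001 ± 0.474 (SE; edgeR adjusted p = 1.62e-31), or 10.84 with low levels raised to 3 counts, and 10.90 to 11.07 when single 4T1 libraries were left out. The summed squamous level of 4T1 was 8.06 to 8.94 CPM, with the lowest median of the 13 models, and 6 of the 21 squamous genes had no count there.

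The other Tmprss11 genes of the cluster were under 1 CPM in 4T1, although 2 of them rose there. Tmprss11b, the nearest neighbour in position, averaged 0.245 CPM in 4T1 and 1.55 CPM in 9263. It rose in 4T1 by 2.78 ± 0.51 on the log2 scale, and Tmprss11f rose by 2.25 ± 0.59 at a mean of 0.134 CPM (SE; edgeR adjusted p at most 0.00102). With low levels raised to 3 counts these were 2.56 and 1.58. Tmprss11d, the airway trypsin-like protease, averaged 0.00180 CPM in 4T1 and 2.08 CPM in 9263, and Tmprss11a averaged 0.00569 CPM in 4T1, where it fell (log2 difference -3.47). Tmprss11f, Tmprss11g and Tmprss11c had highest means of 0.443, 0.201 and 0.00767 CPM in any model. Tmprss11a was highest in MMTV-NEU instead, with 1.16, 4.00 and 8.06 CPM as lowest, median and highest of 8 libraries, and 1 library elsewhere reached that range (MMTV-PYMT replicate 3, 1.72 CPM). It rose in MMTV-NEU by 6.34 ± 0.41 on the log2 scale (edgeR adjusted p = 2.66e-23). Its MMTV-PYMT rise of 2.62 was 0.31 without replicate 3 (adjusted p = 0.655).

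Tmprss6, which in liver cuts hemojuvelin and so lowers the iron hormone hepcidin (ENSMUSG00000016942, chr15:78439667-78468634), had 9.96, 31.9, 12.002, 8.89 and 10.6 CPM in 4T1. In MMTV-NEU, the next model, the lowest, median and highest were 0.0922, 0.364 and 1.21 CPM, and no library outside 4T1 was higher. All 5 libraries of 4T1 thus lay above the other 77, with replicate 2 the highest. The mean was 14.7 ± 9.69 CPM in 4T1 (SD, n = 5; 10.4 ± 1.30 without replicate 2, n = 4), against 0.460 ± 0.385 CPM in MMTV-NEU (n = 8). It rose in 4T1 by 7.55 ± 0.33 and in MMTV-NEU by 2.07 ± 0.35 (SE; edgeR adjusted p at most 4.58e-07). The hepcidin gene Hamp was not tested, with at most 0.0270 CPM in any model, and Bmp6, its inducer, averaged 0.178 CPM in 4T1 and fell there (log2 difference -1.82).

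Tmprss5 and Tmprss3, proteases known from spinal cord and from the inner ear, were both highest in 2225, at 1.13 and 0.907 CPM. Tmprss5 rose there by 4.79 ± 0.32 and Tmprss3 by 4.51 ± 0.32, and Tmprss5 also rose in KPB1-A by 3.98 ± 0.53 and in 9263 by 2.92 ± 0.36 (edgeR adjusted p at most 2.26e-09). Tmprss7 was highest in 9263, at 0.607 CPM, and Tmprss9 in 2336, at 0.275 CPM.

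**Figure D5:**
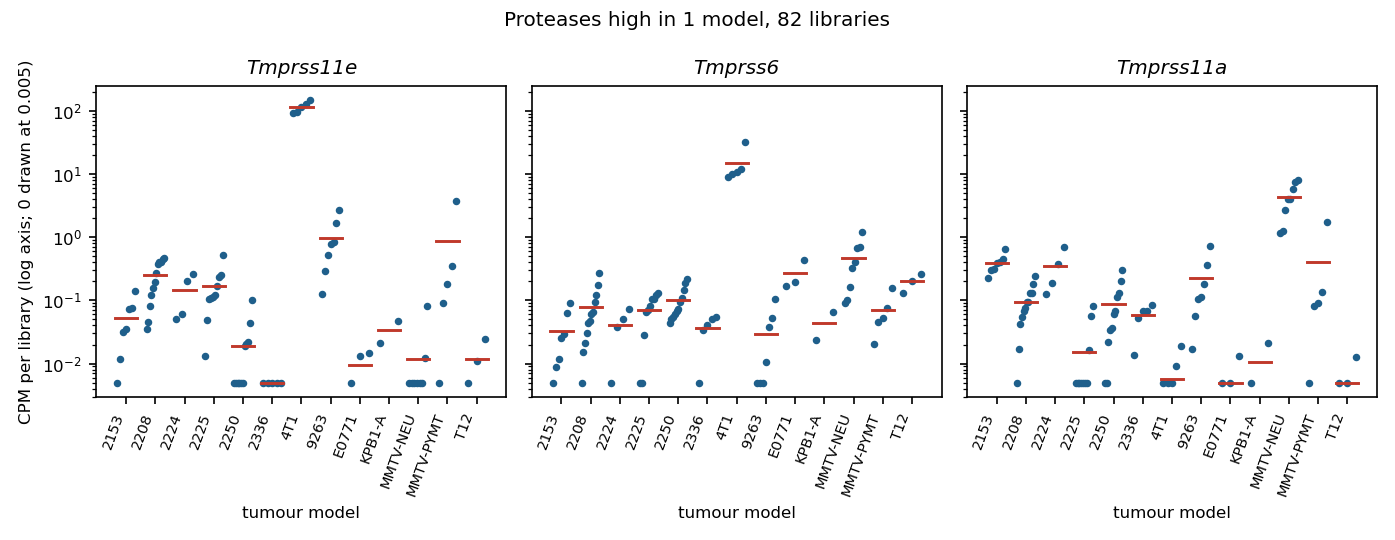
Level of Tmprss11e, Tmprss6 and Tmprss11a in each of the 82 libraries by model, in CPM on a log axis; dots are libraries, bars are model means and values of 0 are drawn at 0.005. All 5 libraries of 4T1 lie above every other library for Tmprss11e and Tmprss6, while the MMTV-NEU libraries of Tmprss11a overlap with 1 MMTV-PYMT library.

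Related surface proteases and the inhibitors of the family were read beside these genes, from lists drawn up by their known roles. St14, the protease matriptase, averaged 514 CPM in 2250, 471 in MMTV-NEU and 1.38 in T12, and Prss8, its partner prostasin, averaged 160 CPM in 2224. Prss22, known as tryptase epsilon, was highest in 4T1 at 87.5 CPM, and Hpn, hepsin, in 2250 at 48.3 CPM. Of the 9 tested genes of that list, 6 were higher and 1 lower in MMTV-PYMT and in 2208, and 6 higher and none lower in 2225. The counts were 2 higher and 5 lower in T12 and in 2336. The matriptase inhibitors Spint2 and Spint1 averaged 473 CPM in MMTV-NEU and 167 CPM in 2208, and both were lowest in T12, at 0.949 and 0.182 CPM. Spint1, Spint2, St14 and Prss8 were lower in T12 and E0771, as Tmprss2, Tmprss4 and Tmprss13 were.

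Spink5, which restrains Klk5, Klk7 and Klk14 in skin, averaged 63.8 ± 36.9 CPM in MMTV-NEU (SD, n = 8) and 27.7 CPM in MMTV-PYMT, and 4.42 CPM in 9263. It rose in these 3 models by 7.72, 6.42 and 3.54 on the log2 scale. MMTV-NEU, the model with the highest mean of Spink5, had a mean of 0.553 CPM for Klk14 and no count of Klk5 or Klk7. Of the 13 tested inhibitors, 8 were higher and 3 lower in MMTV-PYMT, 8 and 1 in 2208, and 7 and 3 in MMTV-NEU. In 4T1, 7 were higher and 2 lower, and in 9263, 5 were higher and none lower. Wfdc2 averaged 290 CPM in 4T1, the secreted inhibitor Slpi 269 CPM in 2208, and the intracellular serpin Serpinb6a 359 CPM in T12.

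Among substrates and receptors, the protease-activated receptor F2r averaged 153 CPM in 4T1. The transferrin receptor Tfrc averaged 353 CPM in 2250 and was lowest in 4T1 at 51.4 CPM, where it fell by 1.84 on the log2 scale. Urokinase (Plau) averaged 215 CPM in T12 and its receptor Plaur 221 CPM in E0771. In the 17 tested genes of this list, 9 were higher and 4 lower in 9263, 8 and 6 in 4T1, and 4 and 7 in MMTV-PYMT. The counts were 5 and 8 in MMTV-NEU, and 6 and 8 in T12. Of the 8 kallikrein-kinin genes, 4 were higher and 2 lower in 4T1, 5 and 1 in 2208, and 4 and none in 2224. Ace, which breaks down kinins, averaged 486 ± 120 CPM in 4T1 (SD, n = 5) and rose there by 4.16. The kinin receptor Bdkrb2 averaged 8.21 CPM in 4T1, and the kininogen Kng2 51.6 CPM in 2224. The plasma kallikrein gene Klkb1, which is unrelated in position, had at most 0.167 CPM.

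The epithelial regulators listed for these genes are given by level, and their link to the proteases was not tested. Ehf and Elf5 averaged 1041 and 511 CPM in MMTV-PYMT and were at most 0.414 and 0.202 CPM in 4T1, E0771 and T12. Elf3 averaged 272 CPM in 2250 and 0.115 CPM in T12. Trp63, which drives stratified epithelium, averaged 268 CPM in 2336 and 232 CPM in 9263. Klk7 averaged 0.0901 CPM in 2336 and 14.2 CPM in 9263. Of the 15 regulators, 11 were higher and 1 lower in MMTV-PYMT, 10 higher and 1 lower in 9263, and 10 higher and none lower in 2224. The counts were 1 higher and 10 lower in E0771, and 4 higher and 11 lower in T12. The shares of all genes called in each comparison, given above, are the background of these counts.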

How the data were processed

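RNA had been extracted from cryopreserved, homogenised mammary tumours and made into mRNA libraries, per the labels' protocols. The authors deposited expected counts per gene, and a second table of normalized signal values whose scaling is not given in the sources used here. STAR, SAMtools, Picard, Salmon and the mm10 build are named, per the submitters' processing notes, without versions or roles. The strand setting of the counting is not given, so genes that overlap on opposite strands are uncertain.

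The deposited expected counts were rounded and fitted in R 4.3.3 with edgeR 4.0.16. Low genes were removed by model with filterByExpr, at a total of 15 and a count of 10 as minima. The fit used TMM scaling, the quasi-likelihood test with robust dispersions, and Benjamini-Hochberg adjustment over 22847 genes at 0.05. An F test compared the 13 models, and each model was set against the unweighted mean of the other 12. Standard errors were derived from the log2 difference and its F. The code was tested on simulated data. DESeq2 1.42.0, limma 3.58.1 on the deposited normalized signal, other scalings, no filter, other sets of comparison models and left-out libraries were alternatives. Shared 30-base words were counted between transcripts, and figures were drawn with matplotlib 3.10.9.

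The members and gene lists were chosen with earlier results of these data known. Proteases with a model mean of at least 5 CPM are given by library, those from 1 to 5 CPM by model mean, and up to 4 genes of each list by highest model mean. Tmprss3, Tmprss7, Tmprss9, Klk1, Klk12, Spink5, Spint1, Hamp, Bmp6 and Klkb1 fall outside that rule and were chosen after their values were seen. Replicate numbers follow deposit order. A model level under 3 counts was raised to 3 counts over the libraries of that model where raised values are given.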

Additional observations from a re-analysis of the deposited data

Results flagged for a closer look

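For proteases with a model mean of at least 5 CPM, 25 groups of 4 to 10 libraries were examined for a library far from the rest, and 6 were found. The cut-off gives about 1 in 20 for unselected, independent groups of normally distributed values, which these groups are not. In MMTV-PYMT, replicate 1 was far above the next library for Klk7 (175 CPM, next 9.17 CPM), Klk6 (111 CPM, next 7.47 CPM) and Klk14 (29.0 CPM, next 3.53 CPM). Without replicate 1 these MMTV-PYMT means were 2.65, 4.39 and 2.93 CPM, so these groups reached 5 CPM only through that library. In 4T1, replicate 2 was far above for Tmprss6, with 31.9 CPM and 12.002 CPM in the next library. At the low end, MMTV-NEU replicate 8 had 41.5 CPM of Tmprss13, the next lowest library 85.5 CPM. The other low library was 2153 replicate 1, with 8.84 CPM of Tmprss2 and 28.9 CPM in the next lowest. Without it, the Tmprss2 mean of 2153 was 31.5 ± 2.04 CPM (SD, n = 6).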

How the results depend on the processing

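For the 10 proteases above 5 CPM, the 100 recomputed log2 differences of their highest model kept their direction and their call. Their 10 means, recomputed over plain library totals, moved by less than 1 SD. Those models were picked as highest in the same data, so a kept call there is no independent support. Without MMTV-PYMT replicate 1, the MMTV-PYMT means were 2.65 CPM for Klk7, 4.39 for Klk6 and 2.93 for Klk14. Those of 9263 were higher, at 14.2, 7.56 and 6.46 CPM. Of the recomputed counts of called proteases, 241 stayed within 1.5 times of the value reported and 55 did not. Some lower calls could not be made by edgeR. Klk14 had no count in 4T1, and Klk13 none in 2225. Their edgeR log2 differences were -5.41 and -3.70, with SE of 14772.5 and 18563.5, so neither could be called lower. Whether such proteases account for the added lower calls of DESeq2 and limma was not tested. The cause of the other shifts was not tested either. No paired analysis was possible because the numbers given to the libraries follow deposit order and pair no tumours across models.

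With limma on the normalized table, higher calls numbered 3 in 2208, 4 in 2224, 3 in 2225, 0 in E0771 and 14 in MMTV-PYMT. Lower calls there numbered 12 in 2153, 11 in 2208, 3 in 2224, 12 in 2225, 6 in 2250, 14 in 4T1, 9 in E0771, 1 in KPB1-A and 13 in T12. With DESeq2, lower calls numbered 15 in 2153, 9 in 2208, 2 in 2224, 13 in 2225, 2 in 2250, 11 in 2336, 10 in 4T1, 3 in KPB1-A, 10 in MMTV-NEU, 1 in MMTV-PYMT and 12 in T12. Without a filter on low counts, T12 had 1 higher call and MMTV-PYMT 1 lower call. With T12 and E0771 left out of the models compared against, 2336 and KPB1-A had 1 higher call each and KPB1-A 1 lower call. Against models of the same strain, which gives no value for E0771, higher calls numbered 1 in KPB1-A and 6 in MMTV-NEU, and lower calls 1 in 2250, 10 in KPB1-A and 1 in MMTV-PYMT. A fit without MMTV-PYMT replicate 1, 2224 replicate 4 and E0771 replicate 2 was chosen after seeing the data. The 9263 libraries, with squamous sums of 99.3 to 1601 CPM, stayed in it. Higher calls in that fit numbered 6 in 2224, 9 in 2225, 4 in 2336, 2 in E0771 and 1 in T12. Lower calls numbered 3 in 2153 and 1 in MMTV-PYMT.

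With single libraries of the smaller models left out, 28 to 32 proteases differed among models and 3 to 4 stood apart. Higher calls ranged over 5 to 11 in 2224, 2 to 3 in 2336, 7 to 7 in 4T1, 2 to 5 in E0771, 1 to 1 in KPB1-A, 16 to 24 in MMTV-PYMT and 0 to 1 in T12. Lower calls ranged over 1 to 2 in 2224, 3 to 5 in 2336, 4 to 5 in 4T1, 3 to 6 in E0771, 0 to 0 in KPB1-A, 0 to 1 in MMTV-PYMT and 4 to 6 in T12. Where KPB1-A was left with 1 library, that library was assumed to vary like those of the other models.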
